A study of Mus musculus with 62 samples.

Results

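The genes described here are 35 genes of the cell cycle, given as a list of names. They were taken by symbol from the 47643 gene symbols measured in white adipose tissue of mice, the lipid-storing fat tissue. All 35 were tested, as were 14577 symbols in all, those that averaged 0.5 TPM or more. TPM is transcript abundance corrected for length and scaled so that each library sums to 1000000. By role, the genes are Mki67 and Top2a (proliferation mark and chromosome structure), Ccne1 and E2f1 (entry into S phase), Mcm2, Mcm3, Mcm4, Mcm5, Mcm6 and Mcm7 (helicase), and Pcna, Rrm2, Tyms and Tk1 (DNA synthesis and nucleotide supply). Those of mitosis are Ccna2, Ccnb1, Ccnb2, Cdk1 and Foxm1 (cyclins, kinase and factor of G2 and M phase), Aurka, Aurkb, Birc5 and Plk1 (mitotic kinases and passenger complex), Bub1, Bub1b, Cenpa, Cenpe and Cenpf (kinetochore and checkpoint), Kif11, Kif20a, Nusap1, Prc1 and Tpx2 (spindle and midzone), and Cdc20 and Ube2c (anaphase-promoting complex).

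Female mice, 2 months old by their labels, were injected with melanoma cells called cachectic (CAC), with melanoma cells called non-cachectic (NCAC) or with no cells, as a mock injection (Con). The labels name neither cell line. Cachexia is the wasting of fat and muscle in cancer. White adipose tissue was sequenced 2, 4, 6 and 8 weeks later, which gives 12 groups of 5 libraries, except for 7 libraries of CAC at 8 weeks, and 62 libraries in all. The series record names athymic NCI Ath/nude mice, while each sample is tagged with the strain C57BL6/J, and which of them was used is not known here. The treatment tag names cachectic cells for every sample, so arm, week and replicate were read from the sample descriptions. The labels call the replicates biological without saying that each came from its own mouse, so p-values measure the spread between these samples. The read depth is unknown. Libraries held 11783 to 14470 genes of at least 1 TPM, and mitochondrially encoded genes took 17.2% to 44.4% of a library. The 8 adipocyte markers summed to between 6075 and 21216 TPM, so no library lacked them.

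A dividing cell passes from growth through DNA synthesis to mitosis, and each step uses its own transcripts. Cyclin E and the transcription factor E2F1 act at entry into S phase, the MCM helicase, PCNA and enzymes of nucleotide supply copy the DNA, and cyclins A and B with CDK1 lead into mitosis. Kinases, kinetochore and spindle proteins and the anaphase-promoting complex then part the chromosomes. In adult fat many cell cycle transcripts come from the minority of cells that divide, such as progenitors, immune and vascular cells. Mature adipocytes rarely divide. In bulk tissue fewer dividing cells, less RNA per dividing cell and a change in other cells cannot be told apart.

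The level per library was low and uneven. Averaged over the 35 genes as log2(TPM + 1), mock tissue stood at 1.71 ± 0.45 (SD, n = 5) at 2 weeks, 1.54 ± 0.30 at 4, 1.57 ± 0.68 at 6 and 2.07 ± 0.87 at 8 weeks. NCAC tissue stood at 1.63 ± 0.34, 1.60 ± 0.39, 1.57 ± 0.50 and 1.82 ± 0.56 (n = 5 each). CAC tissue stood at 2.34 ± 1.58 (n = 5) at 2 weeks, then at 1.21 ± 0.23 (n = 5), 1.09 ± 0.11 (n = 5) and 1.15 ± 0.18 (n = 7). The high mean and wide spread of CAC at 2 weeks came from 2 of its 5 libraries, whose values were 4.19 (replicate 1) and 3.95 (replicate 5), against 1.20, 1.10 and 1.25 in the other three. Mock tissue at 8 weeks held 1 library of the same kind, replicate 2 at 3.50, where the next highest of that group was 2.19.

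**Figure D1:**
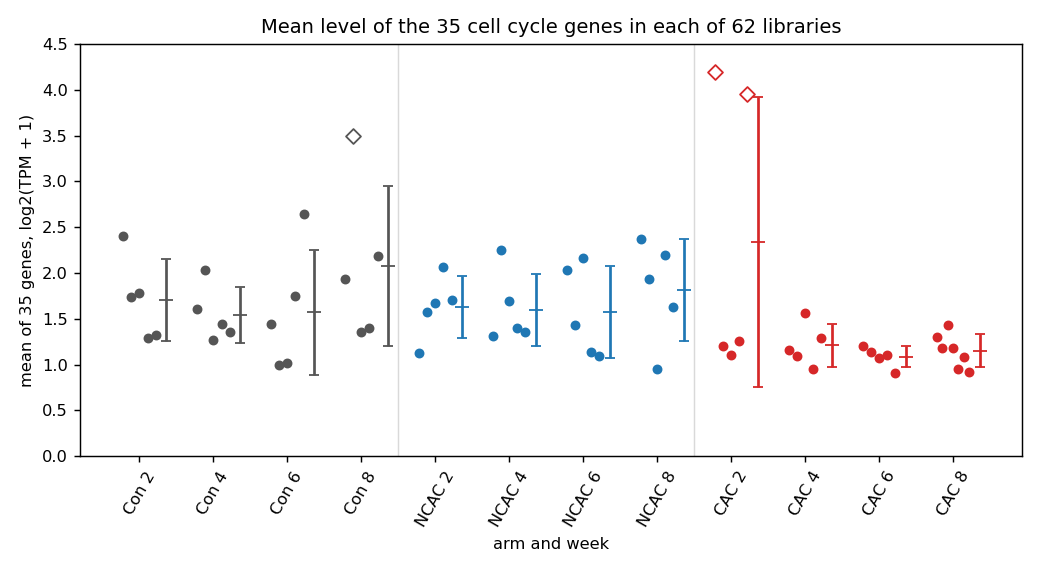
The vertical axis gives the mean of log2(TPM + 1) over the 35 genes and the horizontal axis the arm and week. Each symbol is 1 library, the bars show the group mean and SD, and open diamonds mark the 3 libraries with the highest values (4.19, 3.95 and 3.50). The other CAC libraries lie between 0.909 and 1.56.

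The 35 genes were also compared in their promoters. Start sites of 29 of them are in a RefSeq promoter table (GRCm38.p6), and the 250 bases before each start were searched on both strands for short motifs known from cell cycle promoters. The genes not matched are Mcm4, Ccna2, Foxm1, Aurkb, Kif20a and Tpx2. CCAAT, the box bound by NF-Y, was present in 23 of 29 (79.3%), beside 37.5% of the 27025 genes in the table and 39.8% of the 10754 of them that were tested here. TTTGAA, the CHR element, was present in 9 of 29 (31.0%) beside 18.3% of all and 12.8% of those tested. An E2F-type site, spelled TTCGCGC or with the variant spellings TTGGCGC and also TTCCCGC, was present in 6 of 29 (20.7%) beside 7.68% of all and 13.5% of those tested. These are matches of letters, with no test of binding. In 4 of the 29 (E2f1, Mcm7, Pcna and Cenpa) the start in the table lies more than 100 bases inside the GENCODE gene, so their windows hold transcribed bases. In the other 25 the counts were 20, 9 and 5. The 150 bases before the table's start are printed below for 4 genes that were called in the comparison of 59 libraries further on. Those starts lie 18 bases before the GENCODE gene for Mki67, at its first base for Top2a, 26 bases inside it for Cdk1 and 60 bases before it for Mcm5. Letters in capitals are the matched motifs, 5′ to 3′ on the gene's strand, and a CCAAT and an E2F match may overlap.
Mki67, chr7:135716380-135716529, minus strand: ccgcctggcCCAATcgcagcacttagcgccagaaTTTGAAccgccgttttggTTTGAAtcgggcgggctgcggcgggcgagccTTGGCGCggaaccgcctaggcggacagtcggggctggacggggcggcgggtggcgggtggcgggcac
Top2a, chr11:99024190-99024339, minus strand: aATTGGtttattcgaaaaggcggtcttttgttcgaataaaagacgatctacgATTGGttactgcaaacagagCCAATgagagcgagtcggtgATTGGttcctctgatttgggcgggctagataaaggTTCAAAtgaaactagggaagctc
Cdk1, chr10:69352913-69353062, minus strand: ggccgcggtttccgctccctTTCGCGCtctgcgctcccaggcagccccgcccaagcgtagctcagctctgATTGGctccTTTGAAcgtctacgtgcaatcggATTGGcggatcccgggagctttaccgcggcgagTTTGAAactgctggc
Mcm5, chr8:75109359-75109508, plus strand: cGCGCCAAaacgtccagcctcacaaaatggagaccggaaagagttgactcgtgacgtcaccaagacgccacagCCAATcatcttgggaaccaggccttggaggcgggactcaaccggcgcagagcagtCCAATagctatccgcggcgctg
Top2a holds 4 CCAAT boxes and 1 CHR element in these 150 bases, Cdk1 holds 2 of each with 1 E2F-type site, Mki67 holds 1 CCAAT box, 2 CHR elements and 1 E2F-type site, and Mcm5 holds 2 CCAAT boxes and 1 E2F-type site.

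The 3 libraries with the highest means lay above the other 59 for most of the list. They were picked for their high means over these same genes, so high counts follow in part from that choice. The share of all tested genes beside each count was not selected in this way, and the counts are a description. In CAC replicate 1 at 2 weeks 35 of 35 genes lay above all 59, beside 14.3% of all tested genes, and the genes' median ratio to the median of the 59 was 17.3. In CAC replicate 5 at 2 weeks 30 of 35 lay above all 59, beside 27.4% of tested genes, with a median ratio of 15.5. In mock replicate 2 at 8 weeks 28 of 35 did, beside 17.6% of tested genes, with a median ratio of 9.77. Cenpf, which builds the outer kinetochore, was 30.5, 62.8 and 23.4 times its median in the 3 libraries, in that order. For Pcna, the sliding clamp of DNA polymerase, the ratios were 3.45, 2.14 and 2.25. For E2f1 they were 2.95, 1.34 and 1.81, and for Ccne1 2.84, 0.962 and 1.39.

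The same 3 libraries also stood apart in markers of other tissues. Markers of oviduct and uterus (Ovgp1, Pax8, Foxj1, Hoxa13 and Pgr) summed to 117 and 90.8 TPM in CAC replicates 1 and 5 and to 97.0 TPM in the mock library, against 1.90 to 51.1 TPM in the other 59. Pgr, the progesterone receptor, gave 41.3, 59.5 and 90.9 TPM of these sums, and it reached 49.2 TPM in the 59. Ovgp1, the oviduct glycoprotein, gave 64.3 TPM in CAC replicate 1 but 2.14 and 1.30 TPM in the other two. Pax8 was at 8.98, 20.8 and 3.03 TPM, against at most 2.59 TPM in the 59. Foxj1 was at 1.63, 5.45 and 0.0271 TPM, against at most 0.660 TPM. Hoxa13 was not raised, at 0.433, 2.81 and 1.75 TPM against at most 5.80 TPM. In the mock library the sum thus rested mostly on Pgr. The epithelial genes Epcam, Krt8 and Krt18 of the mammary list were also high, and its 8 genes summed to 525 and 1093 TPM in the 2 CAC libraries, against at most 211 TPM in the 59, and to 194 TPM in the mock library, and the milk genes Csn2, Csn3 and Wap were at 0 in all 3. The 8 adipocyte markers, with Adipoq and Plin1 among them, summed to 8560, 6679 and 6075 TPM, below the range of 9321 to 21216 TPM in the 59. Of 18 marker lists, hair follicle and skin was the other list above the range of the 59 in all 3 libraries, at 4.10, 6.02 and 3.95 TPM against at most 3.83 TPM. The ovary list was above it in 2 libraries (11.6 and 7.54 TPM against at most 7.42 TPM). In 1 library each, mesothelial (498 TPM) and fibroblast markers (6008 TPM) were above it. Macrophages, T cells, B cells, germinal centre B cells, NK cells, neutrophils, erythroid cells, endothelium, urothelium, muscle and melanocytes stayed within it.

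The genes outside the list with the largest excess in CAC replicate 1 over its group were Rpl14-ps1, Ramp3, Plekhs1, Sprr2f, Calb1, S100g, Col6a4, Cldn3, Cd24a and BC048679. Ramp3, a partner of the calcitonin receptor family, stood at 164 and 182 TPM in CAC replicates 1 and 5 and at most at 11.6 TPM in the 59. Calb1, a calcium-binding protein, stood at 89.6 TPM in CAC replicate 1 against at most 7.26 TPM. The plasma protease inhibitor gene A2m stood at 147 TPM in CAC replicate 5 against at most 5.00 TPM. Clca1 stood at 589 TPM there and at 312 TPM in the mock library, against at most 114 TPM. Sprr2f, a cornified envelope protein, stood at 1014 TPM in the mock library against at most 409 TPM. The part of such cells in the levels of the cell cycle genes was not tested.

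**Figure D2:**
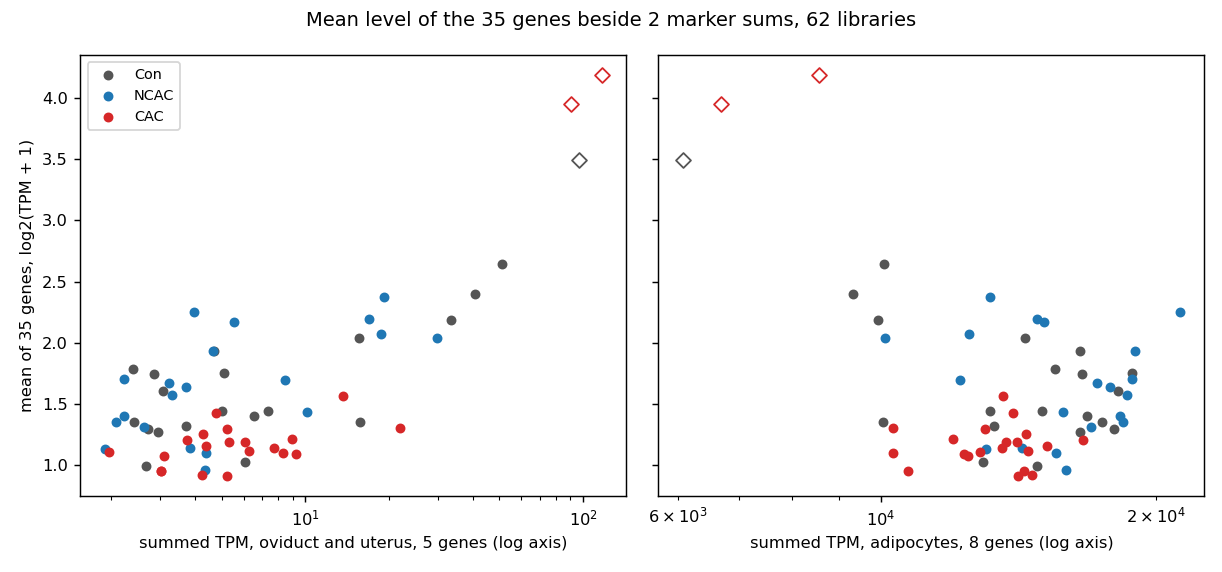
Each symbol is 1 of 62 libraries, with the mean log2(TPM + 1) of the 35 genes on the vertical axis and a summed marker level in TPM on a log axis, for oviduct and uterus on the left and adipocytes on the right. Open diamonds are the 3 libraries above 80 TPM of the oviduct and uterus markers, where adipocyte markers summed to 6075 to 8560 TPM. Mock libraries are grey, NCAC blue and CAC red.

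Results are therefore given for all 62 libraries and, beside them, for the 59 without these 3. The marker list and its limit of 80 TPM were chosen after the means of the 35 genes had been seen, and they separate exactly these libraries, so the values for 59 libraries are a description of the rest and not an independent result.

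In the 59 libraries the mean over the 35 genes was 1.63 ± 0.45 (SD, n = 19) in mock tissue, 1.66 ± 0.43 (n = 20) in NCAC tissue and 1.16 ± 0.17 (n = 20) in CAC tissue. The highest of these 20 CAC libraries, at 1.56, was exceeded by 9 of 19 mock and 12 of 20 NCAC libraries. With all 62 libraries the CAC arm averaged 1.42 ± 0.87 (n = 22) and mock tissue 1.72 ± 0.61 (n = 20). The number of the 35 genes at 1 TPM or more had a median of 23 in mock, 25 in NCAC and 13.5 in CAC libraries.

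CAC was compared with mock tissue at each week with limma and Benjamini-Hochberg adjustment over all tested genes. Here and below, counts at an unadjusted p under 0.05 are a description. The percentages of called genes beside them use the adjusted p and are no background for them. The share of all tested genes at an unadjusted p under 0.05 is not given. Those counts are therefore not a result about the 35 genes. At 2 weeks 0 of 35 genes were called, 0 of 35 had an unadjusted p under 0.05, and the median log2 change of (TPM + 1) was 0.66, beside 0.08 over all tested genes, of which 0.00686% were called. At 4 weeks 0 of 35 were called (5 at an unadjusted p under 0.05), with a median of -0.28 beside -0.08 and again 0.00686% of genes called. At 6 weeks 0 of 35 were called (10 at an unadjusted p under 0.05), with a median of -0.48 beside -0.03 and 0.357% of genes called in either direction. At 8 weeks 1 of 35 fell and 29 had an unadjusted p under 0.05, with a median of -0.96 beside -0.08, while 1.99% of all tested genes fell. Without the 3 libraries the median at 2 weeks was -0.45, with 0 of 35 called by limma, 7 at an unadjusted p under 0.05 and 0% of genes called, and 10 of the 35 genes then lay lower in each of the 3 CAC than in each of the 5 mock libraries, as did 5.12% of all tested genes.

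E2f1, the transcription factor that switches on genes of S phase, was the gene called at 8 weeks. Its levels in mock tissue were 9.72, 8.47, 3.70, 5.78 and 4.83 TPM. In the 7 CAC libraries they ran from 0.556 through a median of 1.68 to 2.94 TPM, so that the groups did not overlap. E2f1 fell by 1.39 (SE 0.28, limma adjusted p = 0.0223) on the log2(TPM + 1) scale. The call was kept in 10 of the 12 fits that left out 1 library, and was lost without CAC replicate 7 or mock replicate 2 (highest adjusted p = 0.0529). Without mock replicate 2, 0 of 35 were called, 27 had an unadjusted p under 0.05, and 1.43% of all tested genes were called in either direction. Without CAC replicate 3 the count was 3, beside 2.44% of all tested genes falling, and without mock replicate 3 it was 7, beside 2.94%. At 8 weeks E2f1, Ccnb2, Kif11, Kif20a and Tpx2 were lower in every CAC library than in every mock library, 5 of 35 beside 2.22% of all tested genes. At 6 weeks this held for Mki67, E2f1, Cenpf, Prc1 and Tpx2, 5 of 35 beside 0.816%, and at 2 and 4 weeks for 0 of 35, beside 0.46% and 0.233%.

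Leaving the mitochondrially encoded genes out of the TPM sum gave 18 of 35 lower at 8 weeks, beside 12.5% of all tested genes, and it moved the split of all calls from 158 higher and 290 lower to 248 and 1824. It moved the split from 45 and 7 to 68 and 57 at 6 weeks, and from 764 and 894 to 732 and 2423 averaged over weeks. For CAC against NCAC it moved the split from 720 and 123 to 332 and 336 at 6 weeks and from 1002 and 736 to 1093 and 1554 averaged. For the CAC slope it moved from 1082 and 622 to 1084 and 1728. Median-ratio rescaling gave 131 and 57 at 6 weeks in CAC against mock, 536 and 463 in CAC against NCAC and 1652 and 1725 for the CAC slope. At 6 weeks these scalings moved the median of all genes in CAC against NCAC from 0.13 to -0.02 and -0.01, and that of the 35 genes from -0.51 to -0.71 and -0.59.

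**Figure D3:**
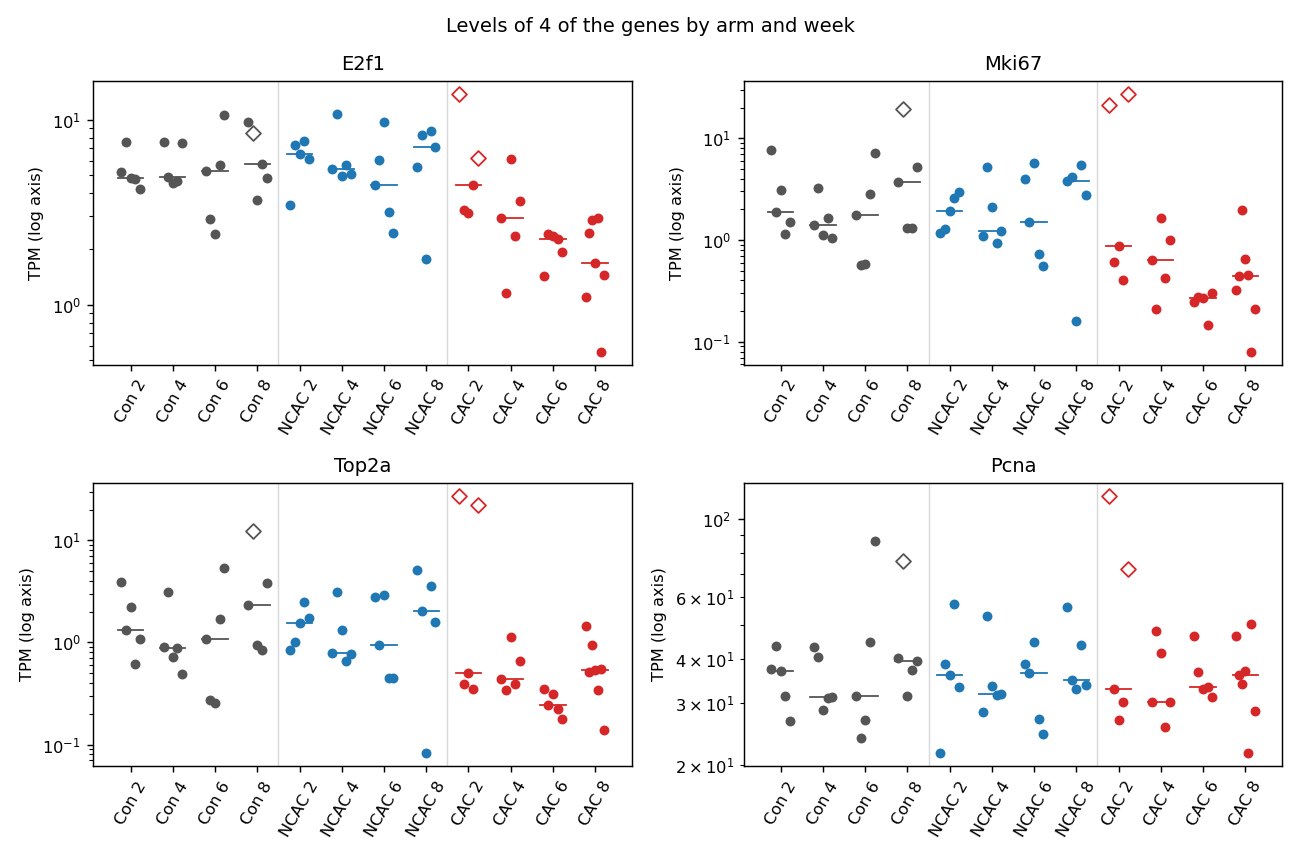
Levels of E2f1, Mki67, Top2a and Pcna in TPM on log axes, by arm and week. Each symbol is 1 library, lines are group medians, and open diamonds are the 3 libraries above 80 TPM of oviduct and uterus markers. E2f1 and Mki67 lie low in CAC tissue from 4 weeks on, and Pcna lies in the same range in all arms. At 2 weeks Mki67 already lies below every mock library in the CAC libraries not drawn as diamonds.

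Averaged over the 4 weeks in 1 fit of all 62 libraries, 1 of 35 genes fell in CAC against mock tissue and 0 rose, while 6.13% of all tested genes fell. The median log2 change over the 35 was -0.28, beside -0.02 over all tested genes, and 32 of 35 were below 0. The gene called was again E2f1, at 5.77 ± 2.16 TPM (SD, n = 20) in mock libraries and 3.21 ± 2.78 TPM (n = 22) in CAC libraries. It fell by 0.77 (SE 0.16, limma adjusted p = 0.00109). E2f1 was called in all 62 fits that left out 1 library, with adjusted p from 0.000209 to 0.00285.

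The count of called genes rests on how the 3 libraries are treated. Without them 26 of 35 fell, with a median of -0.48, beside 8.86% of all tested genes. The same 26 genes fell in a fit of all 62 libraries that gave less weight to libraries with a large residual spread (limma array weights), where 18.3% of tested genes fell. These weights are computed from the same values, so the overlap is not an independent result. With weeks 4, 6 and 8 alone, an alternative added later, 25 of 35 fell (median -0.60, beside 9.17%), and without the mock library as well 22 did (6.55%). Without CAC replicate 1 or 5 at 2 weeks alone, 3 of 35 were called, beside 6.76% and 7.55% of all tested genes. Leaving out mock replicate 4 at 2 weeks or 3 at 4 weeks gave 2 calls, beside 5.48% and 7.05%. Leaving out CAC replicate 3 at 8 weeks, mock replicate 2 or 3 at 6 weeks or mock replicate 3 or 4 at 8 weeks gave 3, beside 5.34% to 7.87%.

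**Figure D4:**
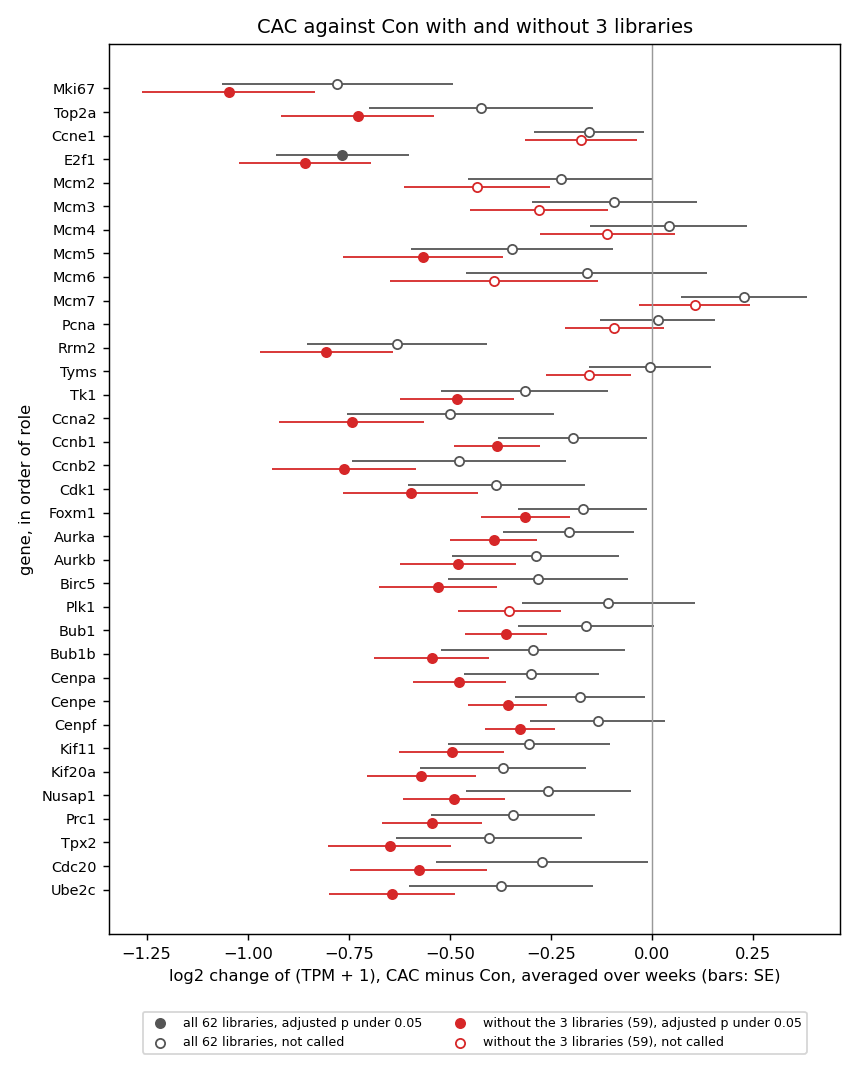
Log2 change of (TPM + 1) in CAC minus mock tissue, averaged over the weeks, for each of the 35 genes in order of role, with bars for the limma SE. Grey symbols are from all 62 libraries, with 1 gene called, red symbols from the 59 without the 3 libraries, with 26 called, and filled symbols mark an adjusted p under 0.05.

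By role, the calls in the 59 libraries lay mostly among the genes of mitosis, as the counts below give. Adjusted p-values from the 59 are a description, since the 3 libraries were left out after the means of these genes had been seen. Mki67, which coats mitotic chromosomes and gives the Ki-67 mark, ranged from 0.0798 to 7.60 TPM in the 59 libraries, and stood at 21.1, 27.3 and 19.4 TPM in the 3 libraries. At 6 weeks its mock levels were 1.78, 0.574, 0.580, 2.86 and 7.16 TPM. In CAC at 6 weeks they were 0.246, 0.274, 0.269, 0.147 and 0.300 TPM, all lower than the lowest mock library. Averaged over weeks the log2 change of Mki67 was -0.78 (SE 0.29, limma adjusted p = 0.066) with all libraries and -1.05 (SE 0.21, adjusted p = 0.00065) in the 59. At 2 weeks the CAC levels of Mki67 were 21.1, 0.613, 0.871, 0.405 and 27.3 TPM and the mock levels 7.60, 1.88, 3.13, 1.13 and 1.51 TPM, so that CAC libraries lay on both sides of the mock range. Top2a, the topoisomerase that untangles chromosomes, was at 27.4, 0.393, 0.50, 0.351 and 22.4 TPM in CAC at 2 weeks. Its log2 change averaged over weeks was -0.42 (SE 0.28, adjusted p = 0.36) in all libraries and -0.73 (SE 0.19, adjusted p = 0.0072) in the 59. Its mean in the 59 was 1.68 ± 1.42 TPM (n = 19) in mock and 0.499 ± 0.328 TPM (n = 20) in CAC tissue.

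Of the 2 genes of S phase entry only E2f1 was called, in all libraries and in the 59. Ccne1, cyclin E1, averaged 4.25 ± 1.05 TPM (n = 20) in mock and 4.01 ± 2.47 TPM (n = 22) in CAC libraries, and the log2 change of -0.16 was not called (SE 0.14, limma adjusted p = 0.52). Of the 6 MCM genes, whose products form the helicase that opens DNA, 0 were called with all libraries (median log2 change -0.13) and 1 of 6, Mcm5, in the 59 (-0.57, SE 0.20, limma adjusted p = 0.046). Mcm7 was the most abundant of them at 15.2 ± 8.98 TPM (n = 22) in CAC and 11.9 ± 4.18 TPM (n = 20) in mock tissue, a difference of 0.23 on the log2 scale (SE 0.16, adjusted p = 0.39). It was called higher with median-ratio rescaling (0.25).

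Among the 4 genes of DNA synthesis and nucleotide supply, Rrm2 and Tk1 were called in the 59 while Pcna and Tyms were not. Rrm2, the small subunit of ribonucleotide reductase, was at -0.63 (log2 change, SE 0.22, limma adjusted p = 0.056) with all libraries and fell by 0.81 (SE 0.16, adjusted p = 0.00065) in the 59. Tk1, the thymidine kinase, fell by 0.48 (SE 0.14, adjusted p = 0.016) in the 59. Tyms, thymidylate synthase, had a log2 change of -0.16 (SE 0.10, adjusted p = 0.32) there. Pcna was the most abundant of the 35 at a mean of 39.0 TPM and had the narrowest spread, 21.6 to 86.3 TPM in the 59 libraries. It averaged 39.5 ± 15.6 TPM (n = 20) in mock, 37.0 ± 9.82 TPM (n = 20) in NCAC and 40.4 ± 20.2 TPM (n = 22) in CAC tissue, and its log2 change in CAC against mock was 0.01 (SE 0.14, adjusted p = 0.97), a sign that turned under several alternatives (-0.09 in the 59). In CAC at 2 weeks Pcna stood at 116, 33.0, 27.0, 30.3 and 72.2 TPM, again highest in replicates 1 and 5.

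Of the 5 cyclins, kinase and factor of G2 and M phase 0 were called with all libraries and 5 fell in the 59. Cdk1, the kinase that drives mitosis, averaged 2.44 ± 1.20 TPM (n = 19) in mock and 1.16 ± 0.704 TPM (n = 20) in CAC tissue of the 59 and fell there by 0.60 (SE 0.17, limma adjusted p = 0.012). Ccnb1, cyclin B1, is a low transcript with a mean of 0.926 TPM and fell by 0.38 (SE 0.11, adjusted p = 0.011). Ccna2, cyclin A2, fell by 0.74 (SE 0.18, adjusted p = 0.0035). Foxm1, the factor that induces G2 genes, was closest to the threshold (-0.31, SE 0.11, adjusted p = 0.049). Changes of such low transcripts are understated on this scale, since 1 is added to each value.

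Among the mitotic kinases and the chromosomal passenger complex, 3 of 4 fell in the 59. Aurkb, the kinase of that complex, fell by 0.48 (SE 0.14, limma adjusted p = 0.019), and Plk1, polo-like kinase 1, was not called (-0.35, SE 0.13, adjusted p = 0.054). All 5 kinetochore and checkpoint genes fell, with Cenpa, the centromeric histone, at -0.48 (SE 0.12, adjusted p = 0.0039). All 5 spindle and midzone genes fell, with Tpx2, an activator of Aurora A, at -0.65 (SE 0.15, adjusted p = 0.0028) and Kif20a, a kinesin of the midzone, at -0.57 (SE 0.13, adjusted p = 0.003). Both genes of the anaphase-promoting complex fell, Cdc20 by 0.58 (SE 0.17, adjusted p = 0.017) and Ube2c by 0.64 (SE 0.16, adjusted p = 0.0038). With all 62 libraries, 0 of these 16 genes were called.

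**Figure D5:**
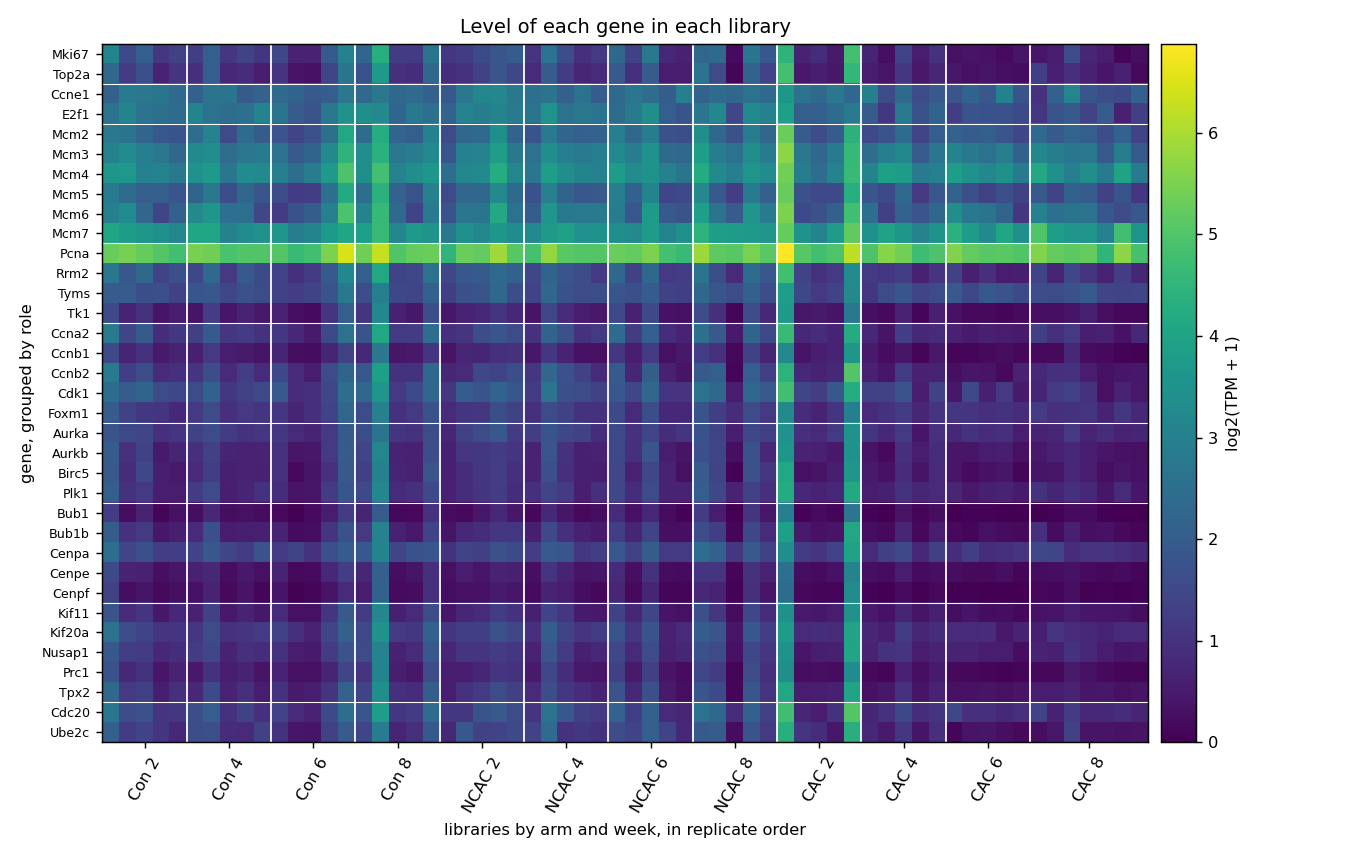
Colour gives log2(TPM + 1) of each of the 35 genes (rows, grouped by role) in each of the 62 libraries (columns, by arm and week, weeks 2 to 8 within an arm). The 3 bright columns are mock replicate 2 at 8 weeks and CAC replicates 1 and 5 at 2 weeks, and the bright row is Pcna.

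CAC was also compared with NCAC tissue, from mice injected with the melanoma cells labelled non-cachectic. The 2 comparisons share the CAC samples. Averaged over weeks, 1 of 35 genes fell beside 5.05% of all tested genes, with a median of -0.22. It was E2f1, at 6.00 ± 2.34 TPM (n = 20) in NCAC libraries (-0.80, SE 0.16, limma adjusted p = 0.000668). Without the 3 libraries 26 of 35 fell beside 7.63%, and with array weights 28 of 35 did beside 16.7%. With weeks 4, 6 and 8 alone 23 of 35 did beside 6.57%, and 25 beside 7.11% without the mock library as well. Without CAC replicate 1 or 5 at 2 weeks alone, 3 of 35 were called, beside 5.06% and 5.34%. At 6 weeks 1 of 35 fell, beside 0.844%, and it was Ube2c, the ubiquitin-conjugating enzyme of the anaphase-promoting complex. Its NCAC levels were 2.08, 1.62, 3.16, 1.60 and 0.701 TPM. Its CAC levels were 0.0773, 0.297, 0.331, 0.223 and 0.137 TPM, all below the NCAC range. Ube2c fell by 1.17 (SE 0.21, adjusted p = 0.0119), a call kept in 10 of 10 fits that left out 1 library. Without urothelial libraries, and in 1 fit of all 62 libraries, 0 of 35 were called at 6 weeks. These counts stand without the share of all tested genes, so they describe the processing and are not a result about the 35 genes. Without NCAC replicate 5 the count was 3, beside 1.48% of all tested genes. At 6 weeks 9 of 35 genes were lower in every CAC than in every NCAC library, Mki67, Top2a and Ccna2 among them, beside 1.14% of all tested genes. At 2, 4 and 8 weeks 0 of 35 were, beside 0.535%, 0.439% and 0.556%.

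At 2, 4 and 8 weeks 0 of 35 were called by limma in CAC against NCAC, with 0, 8 and 25 genes at an unadjusted p under 0.05 and with 0%, 0% and 0.528% of all tested genes called. At 8 weeks 1 library set that count. NCAC replicate 3 had a mean of 0.95 over the 35 genes, the lowest of its group, and 0.159 TPM of Mki67 against 2.74 to 5.40 TPM in the other four. Without it 24 of 35 fell, beside 6.34% of all tested genes. That library was picked out for its low level of the same genes, so this count is a description.

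NCAC and mock tissue showed 0 called genes among the 35 at each of the 4 weeks and averaged over weeks, 0 at an unadjusted p under 0.05 in each, and 0% of all tested genes called by limma. The medians were -0.12, 0.07, 0.01 and -0.27 at 2, 4, 6 and 8 weeks and -0.08 averaged. For E2f1 the averaged difference was 0.03 (SE 0.17, limma adjusted p = 0.98).

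Change per week was taken for each arm from 1 fit, in which all 12 groups share 1 estimate of the spread per gene. The groups differed in spread. The SD of the 35-gene mean in CAC was 1.58 at 2 weeks and 0.23, 0.11 and 0.18 at 4, 6 and 8 weeks. The SE and adjusted p of a CAC slope thus do not measure the spread of the CAC weeks alone. With all 62 libraries 25 of 35 genes fell per week in the CAC arm, beside 4.27% of all tested genes, with a median of -0.20 per week beside -0.00 over all tested genes. The largest slope was that of Cdk1 (-0.31 per week, SE 0.07, limma adjusted p = 0.000966). The 10 genes not called were Ccne1, the 6 MCM genes, Pcna, Tyms and Foxm1. Without the 3 libraries 0 of 35 were called, 3 had an unadjusted p under 0.05 and the median was -0.01, beside 1.32% of tested genes falling. Without CAC replicate 1 at 2 weeks alone 4 genes were called, beside 1.72% of tested genes, without replicate 5 alone 5, beside 1.91%, and with array weights 4, beside 6.88%. Mock and NCAC tissue had 0 of 35 called, 0 at an unadjusted p under 0.05 and 0% of genes called. The difference in slope between CAC and mock tissue was called for 0 of 35 (29 at an unadjusted p under 0.05) with 0.741% of genes called. Leaving out CAC replicate 2, 3 or 4 at 2 weeks gave 3, 8 or 3 genes that fell faster, beside 0.213%, 0.405% and 0.165% of all tested genes, and leaving out replicate 3 of CAC or of mock at 8 weeks gave 1, beside 0.165% and 0.0823%. For NCAC against mock it was called for 0 of 35 (0 at an unadjusted p under 0.05), with 0% of genes called.

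A second set of marker values moved with the CAC arm. Bladder-lining (urothelial) markers exceeded 100 TPM in 13 of 22 CAC, 4 of 20 mock and 2 of 20 NCAC libraries, with arm medians of 127, 22.2 and 14.1 TPM. Leaving out these 19 libraries left 9 CAC libraries and 0 of 35 genes called by limma in CAC against mock, with 1 at an unadjusted p under 0.05 and a median of -0.23, beside 0.844% of all tested genes called. E2f1 was then at -0.62 and not called. The libraries kept in this fit included CAC replicate 1 at 2 weeks (16.8 TPM) and mock replicate 2 at 8 weeks (84.2 TPM). Both are among the libraries with the highest means over the 35 genes. Among the 59 libraries, CAC libraries under 100 TPM had a mean of 1.20 ± 0.20 (n = 8) over the 35 genes and those over it 1.13 ± 0.14 (n = 12). Mock libraries under 100 TPM had 1.67 ± 0.46 (n = 15) and those over it 1.46 ± 0.42 (n = 4). Neutrophil markers had medians of 31.3 TPM in CAC, 13.8 TPM in mock and 15.6 TPM in NCAC libraries, and adipocyte markers 13566, 14900 and 15872 TPM. The part of these cells in the result was not tested.

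The genes around the 35 in the pathway were followed in 5 lists with 105 genes. Of 31 other mitosis genes tested, 0 were called in CAC against mock tissue over all libraries and 18 fell in the 59, beside the 6.13% and 8.86% of all tested genes that fell. Kif23, a kinesin of the midzone, fell at 8 weeks by 1.27 (SE 0.31, limma adjusted p = 0.045), and Anln, which builds the contractile ring, fell against NCAC by 0.40 (SE 0.13, adjusted p = 0.037). Of 25 other replication factors 1 fell and 1 rose with all libraries, where 5.24% of all tested genes rose. Gins1, of the GINS helicase complex, rose by 0.41 (SE 0.09, adjusted p = 0.00196) and Gins2 fell by 0.37 (SE 0.13, adjusted p = 0.0486). Per week in CAC tissue 20 of the 31 mitosis genes fell, led by Stmn1 (-0.25) and Spc25 (-0.23), beside 4.27% of all tested genes, and 0 did in the 59, beside 1.32%.

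Of 12 G1 cyclins, kinases and pocket proteins 2 fell and 1 rose in CAC against mock tissue, beside 6.13% and 5.24% of all tested genes. Ccnd1, cyclin D1, had a median of 10.1 TPM in mock and 3.71 TPM in CAC libraries and fell by 0.97 (SE 0.30, limma adjusted p = 0.0236), and by 2.25 (SE 0.33, adjusted p = 0.00753) at 8 weeks. Ccnd3, cyclin D3, fell by 0.31 (SE 0.08, adjusted p = 0.00958). Myc, a growth-promoting transcription factor, was at 14.9 ± 9.65 TPM (n = 20) in mock and 25.0 ± 14.5 TPM (n = 22) in CAC libraries. It rose by 0.69 (SE 0.22, adjusted p = 0.0356) and was not called in the 59.

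Of 12 CDK inhibitors and arrest genes 0 rose and 4 fell in CAC against mock tissue, beside the same shares. Gadd45a, a stress-induced arrest gene, fell by 0.80 (SE 0.19, limma adjusted p = 0.00329). Cdkn2c, the p18 inhibitor of CDK4 and CDK6, was at 137 ± 43.9 TPM (n = 20) in mock and 98.7 ± 41.0 TPM (n = 22) in CAC libraries and fell by 0.49 (SE 0.14, adjusted p = 0.0158). The other two were Cdkn1c and Ccng1. Against NCAC tissue Cdkn1a, the p21 inhibitor, rose by 0.91 (SE 0.29, adjusted p = 0.0324). Of 13 tested genes of the E2F family and the DREAM and MuvB complexes, 1 rose, Lin9 by 0.25 (SE 0.08, adjusted p = 0.0325).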

How the data were processed

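RNA extraction with Trizol and stranded TruSeq mRNA libraries are given per the labels' protocols. The authors deposited 1 table of TPM, with mm10 as the genome build in the submitters' processing notes. Aligner, counting tool and annotation were not given in the sources used here, nor was the read depth, so values carry no counting interval. Values were used as log2(TPM + 1) for genes that averaged 0.5 TPM or more. Comparisons of arms within a week used limma (3.58.1, with R 4.3.3) on the libraries of both groups, and averages over weeks and slopes used all 62 libraries. In the fit of all 62 the 12 groups share 1 estimate of the spread per gene, although their spreads differ. Tests were two-sided, adjusted over all tested genes by Benjamini-Hochberg and called at an adjusted p under 0.05, and only called genes are said to have risen or fallen. Errors are SD for TPM and SE for log2 changes. The fits were tested on simulated data with a common SD per gene in all groups and no outlying libraries. These data differ in both, so that test does not cover the effect of the 3 libraries with the highest means.

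The 35 genes, the lists and the rule for named genes were chosen with earlier results of these data known. The rule names Mki67, Top2a, Pcna, Mcm5, Ccnb1, Cdk1, Ccne1 and E2f1, the most abundant and the most changed gene of each role, genes called at 1 week, called genes of the further lists (up to 2 in each direction and comparison), and 10 genes of the library with the highest mean. Other genes given with values were named after these were seen. No matched pseudogene of the 35 averaged above 0.0996 TPM (Pcna-ps2). Promoter bases are from RefSeq on GRCm38.p6. Alternatives were the pseudocount, the filter, median-ratio rescaling, a replicate block, array weights, 1 fit of all libraries, and leaving out mitochondrially encoded genes, urothelial libraries or each library in turn. Leaving out the libraries above 80 TPM of oviduct and uterus markers, or week 2, was added after the data were seen.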

Additional observations from a re-analysis of the deposited data

Results flagged for a closer look

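Role averages of the 35 genes were screened for single libraries far from the rest of their group, with Dixon's criterion in groups of 5 or 7 libraries. The criterion was met in 8 of 120 tests, by 6 highest and 2 lowest libraries, and chance alone meets it in about 1 of 20. Values are means of log2(TPM + 1). Mock replicate 2 at 4 weeks was high for the proliferation mark and chromosome genes (2.07), the kinetochore genes (1.15) and the spindle genes (1.39). Mock replicate 4 at 4 weeks was low for the 2 genes of S phase entry (2.22), and CAC replicate 1 at 2 weeks was high for them (3.77). For the 2 genes of the anaphase-promoting complex, NCAC replicate 1 at 2 weeks was low (0.918), and NCAC replicate 2 at 4 weeks (2.48) and CAC replicate 3 at 8 weeks (1.26) were high. No library met it on the mean of all 35 genes, since the 2 high CAC libraries at 2 weeks lie close to each other and mock replicate 2 at 8 weeks has a neighbour at 2.19.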

How the results depend on the processing

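Counts of called genes among the 35 are given for each alternative beside the value reported. The share of all tested genes that fell in CAC against mock tissue also moved between alternatives. At 8 weeks it went from 1.99% to 12.5% without mitochondrially encoded genes. Averaged over weeks it went from 6.13% to 18.3% with array weights. The counts stand here without that share, so they describe the processing and are not a result about the 35 genes. CAC against mock at 8 weeks (1) became 5 and 3 with pseudocounts of 0.1 and 0.5 and 9 with median-ratio rescaling. It was 18 without mitochondrially encoded genes and 3 in 1 fit of all libraries. It was 0 with the replicate block, without urothelial libraries or without the 3 libraries with the highest means. It ranged from 0 to 7 when 1 library was left out. CAC against NCAC at 6 weeks (1) became 3 with a pseudocount of 0.1, 4 with rescaling, 2 without mitochondrially encoded genes and with the replicate block, and 0 with a mean of at least 2 TPM, without urothelial libraries and in 1 fit, and ranged from 1 to 3 when 1 library was left out. At 8 weeks (0) it was 1 in 1 fit and from 0 to 24 when 1 library was left out.

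Averaged over weeks, CAC against mock (1) became 4 and 3 with pseudocounts of 0.1 and 0.5, 4 with rescaling (1 rose, 3 fell), 3 without mitochondrially encoded genes, 0 without urothelial libraries, 26 with array weights or without the 3 libraries, 25 with weeks 4, 6 and 8 alone, 22 with both, and from 1 to 3 when 1 library was left out. CAC against NCAC (1) became 5, 5, 2, 0, 28, 26, 23 and 25 with a pseudocount of 0.1, rescaling, no mitochondrially encoded genes, no urothelial libraries, array weights, without the 3 libraries, weeks 4, 6 and 8 alone, and both, and from 1 to 3 when 1 library was left out. The slope in CAC tissue (25) became 9 with a mean of at least 2 TPM (fewer genes tested), 5 with the replicate block, 4 with array weights and 0 without urothelial or without the 3 libraries, and from 4 to 30 when 1 library was left out. The slope in mock tissue (0) became 2 with array weights. The slope difference of CAC and mock (0) became 2 with rescaling, 1 without mitochondrially encoded genes, 3 with array weights and from 0 to 8 when 1 library was left out. NCAC against mock gave 0 in each alternative.

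With a pseudocount of 0.1 the difference of the 35-gene mean between CAC and mock tissue was -0.64, -0.98 and -1.56 at 4, 6 and 8 weeks, against -0.33, -0.48 and -0.92. Between CAC and NCAC it was -0.73, -1.04 and -1.17, against -0.39, -0.49 and -0.67. Between CAC and NCAC at 2 weeks it was -0.44 without the 3 libraries, against 0.71. The sign also turned between CAC and mock tissue at 2 weeks. That difference was 0.63 with all libraries, and without the 3 libraries the means were 1.19 in CAC and 1.71 in mock tissue. The change of Pcna (0.013) turned to -0.045 without mitochondrially encoded genes, -0.028 without urothelial libraries, -0.031 with array weights, -0.094 without the 3 libraries, -0.124 and -0.056 with weeks 4, 6 and 8 alone and with both, and ran from -0.068 to 0.086 when 1 library was left out. That of Ccne1 (-0.16) turned to 0.20 without urothelial libraries. The cause was not tested. Whether replicate numbers pair the samples is not settled. Correlations of same-numbered libraries ran from -0.65 to 0.57. At 2 weeks their median was 0.36 for CAC and mock, against -0.01 for libraries of other numbers. For CAC and NCAC at 2 weeks it was -0.33 against 0.06. The read depth is unknown, so the precision of the low TPM values, many under 1 TPM, is not known.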
